A study of Mus musculus with 8 samples.

Results

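Astrocytes clear cellular debris, synapses and myelin fragments through a small set of engulfment receptors and the soluble proteins that link those receptors to their targets. The 10 genes described here are Megf10, Mertk, Axl, Tyro3, Lrp1 and Abca7 (receptors and a transporter), Gas6, Pros1 and Mfge8 (bridging ligands) and Gulp1 (a cytoplasmic adaptor). They were chosen by name, with earlier results of these data known, and were matched through the gene symbols of the authors' deposited comparison to 10 of the 39179 mouse gene identifiers in the count tables. All 10 passed the filter on low counts, as did 14757 genes in total.

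Dying cells and unwanted synapses expose phosphatidylserine, a lipid normally kept on the inner face of the membrane. Gas6, Pros1 and Mfge8 bind this lipid. Gas6 and Pros1, which need vitamin K-dependent carboxylation to do so, hand the target to the TAM receptor tyrosine kinases Tyro3, Axl and Mertk, and Mfge8 hands it to alpha-v integrins. Megf10 is the mammalian relative of the nematode engulfment receptor CED-1, Gulp1 is the relative of the adaptor CED-6 that binds the tails of Megf10 and Lrp1, and Abca7 is a relative of the transporter CED-7. Megf10 and Mertk are known for their part in the removal of synapses by astrocytes. Lrp1 is a large endocytic receptor with many ligands, among them apolipoprotein E and calreticulin.

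RNA was measured in astrocytes sorted from the spinal cord of mixed Swiss-Webster mice at postnatal days 12 to 14. All animals carried the Aldh1l1-GFP reporter by which cells were sorted. The 4 control libraries (S1, S2, S6, S7) came from cre-negative mice, labelled wild-type, and the 4 Kir4.1 conditional knockout (cKO) libraries (S3, S4, S5, S8) from mice carrying Aldh1l1-cre and floxed Kir4.1 on both alleles. The labels do not say whether the controls carried floxed alleles. The series describes the 4 libraries of each group as biological replicates, and where 4 values are listed below they follow that order. Kir4.1, the inwardly rectifying potassium channel of astrocytes, is encoded by Kcnj10. The title frames the comparison as a question about astrocytic Kir4.1 and fast motor neurons, and no label names engulfment as a readout.

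Gene reads ranged from 13892736 to 25065686 per library. The deleted gene, Kcnj10, had a mean of 34.0 CPM ± 4.64 (SD, n = 4) in cKO against 1820.1 CPM ± 468 (SD, n = 4) in controls, where CPM are counts per 1000000 reads of the TMM-scaled library size, and no library went against its label. The astrocyte label was checked against 14 astrocyte markers, which summed to 25445 to 43680 CPM in controls and 31112 to 39062 CPM in cKO. Of these 14 markers, 2 were called higher in cKO by edgeR's quasi-likelihood test. Aldh1l1, the gene that names the reporter and the cre line, was at 131 to 151 CPM in controls and 244 to 349.8 CPM in cKO, with a log2 fold change of 1.01 and an adjusted p of 0.0179 by edgeR. Aqp4, the water channel of astrocyte endfeet, was at 1588 to 2454 CPM and 3373 to 5268 CPM, with a log2 fold change of 1.09 and an adjusted p of 0.0243 by edgeR. The part of this difference in the values of the 10 genes was not tested. The 12 microglial markers, of cells that share many of the engulfment genes, summed to 28.8 to 47.9 CPM in controls and 30.9 to 67.4 CPM in cKO. None of the microglial genes was at 0 in every library.

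None of the 10 genes passed an adjusted p of 0.05 between cKO and control in edgeR's quasi-likelihood test, adjusted by the Benjamini-Hochberg method over all 14757 genes, of which 47 passed (0.318%). DESeq2 and limma-voom on the same counts also called 0 of the 10, against 2.49% and 0.325% of all genes, and the authors' deposited table listed 0 of the 10 at an adjusted p under 0.05, against 2.87% of its genes. At an unadjusted p under 0.05 there were 2 of 10 by edgeR (Mfge8 and Gas6, both with higher means in cKO), where 9.81% of all genes tested met that threshold, 5.03% higher and 4.77% lower, and 3 of 10 each by DESeq2 and limma-voom, against 8.98% and 10.6% of all genes. The log2 fold change, cKO over control, was positive for 7 of the 10 and negative for Axl, Tyro3 and Pros1, and 48.4% of all genes tested had a positive value. The median of the 10 was 0.30, against -0.017 for all genes tested. Whether the 10 genes as a set differ from the rest of the table was not tested.

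**Figure D1:**
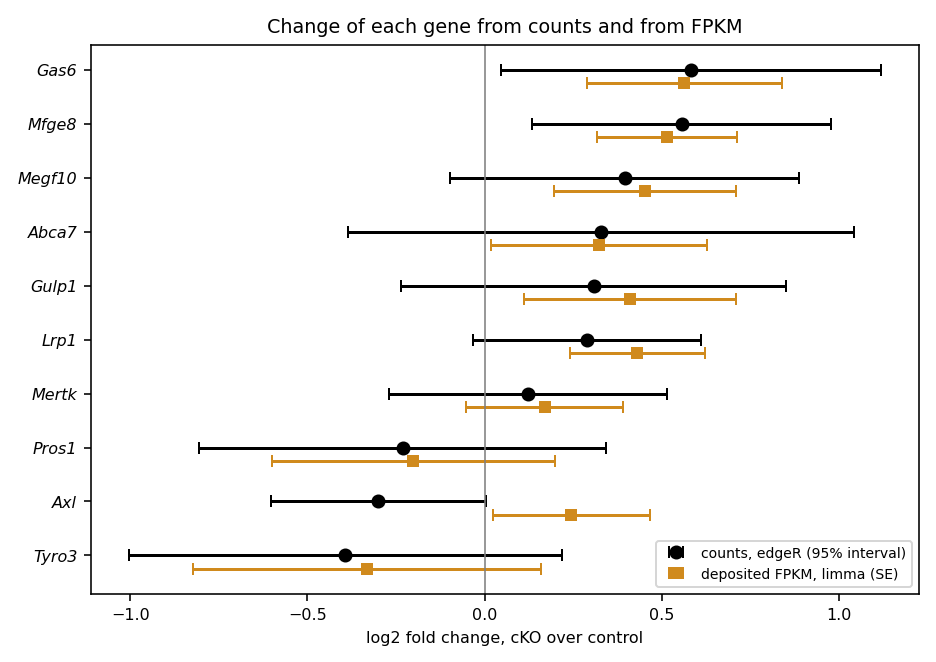
Log2 fold change, cKO over control, of the 10 genes from counts (black circles, edgeR, with 95% intervals) and from the deposited FPKM values (orange squares, limma on log2(FPKM + 1), with standard errors). The interval from counts lies above 0 only for Gas6 and Mfge8 before adjustment, and Axl lies on opposite sides of 0 in the 2 measures.

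Megf10 (ENSMUSG00000024593; chromosome 18, 57133090 to 57297467 on GRCm38, plus strand, 26 merged exons) was at 153, 148, 80.6 and 81.6 CPM in controls and at 145, 183, 150.0 and 130.4 CPM in cKO. The controls thus fell into a high and a low pair, and the cKO libraries lay around the high pair. The group means were 116 ± 40.0 and 152 ± 22.04 CPM (SD, n = 4 each), and the log2 fold change was 0.40 with a 95% interval of -0.098 to 0.89. The adjusted p was 0.612 by edgeR's quasi-likelihood test, so the difference did not pass the threshold. The groups overlapped, and cKO S4 lay above every control. Without control S6 or S7 the log2 fold change was 0.26 in each case, and without control S1 or S2 it was 0.56 and 0.54.

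Mertk (ENSMUSG00000014361; chromosome 2, 128698956 to 128802894, plus strand), the TAM receptor most associated with astrocytic engulfment, was at 160, 199, 111 and 148 CPM in controls. In cKO it was at 164, 151, 189 and 168 CPM. The cKO values all lay inside the range of the controls, whose lowest library was S6. Its log2 fold change was 0.12 with a 95% interval of -0.27 to 0.51 and an adjusted p of 0.873 by edgeR's quasi-likelihood test. On the fold scale the interval ran from 0.83 to 1.43, and the log2 fold change was -0.0078 without control S6, 0.27 without control S2 and 0.064 without cKO S5.

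Axl (ENSMUSG00000002602; chromosome 7, 25757273 to 25788705, minus strand), a TAM receptor that binds Gas6, was at 161, 133, 135 and 134 CPM in controls. In cKO it was at 111, 117, 115 and 114 CPM. It was the only one of the 10 genes whose groups did not overlap, which was the case for 6.34% of all genes tested, 2.94% with cKO lower. The means were 141 ± 13.7 and 114 ± 2.43 CPM (SD, n = 4 each), the log2 fold change was -0.30 with a 95% interval of -0.60 to 0.0034, and the adjusted p was 0.516 by edgeR's quasi-likelihood test. Control S1 was the highest library, and without it the log2 fold change was -0.23.

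The deposited FPKM values gave Axl the opposite direction. They were at 40.3 to 60.9 in controls, with a mean of 52.8 ± 9.22 (SD, n = 4), and at 46.2 to 86.0 in cKO, with a mean of 63.5 ± 16.6 (SD, n = 4). The groups overlapped on that scale, and limma on log2(FPKM + 1) gave a log2 fold change of 0.24 (standard error 0.22). The authors' deposited comparison, which holds means of scaled counts, had Axl lower in cKO, at -0.29 with an adjusted p of 0.244. DESeq2 put it at -0.30 from the counts, with an unadjusted p of 0.0237 and an adjusted p of 0.273. Axl was thus lower in cKO by the counts and by the authors' comparison, and higher by the FPKM values. No annotated gene overlaps Axl, and the cause of the disagreement was not tested.

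Tyro3 (ENSMUSG00000027298; chromosome 2, 119797733 to 119818104, plus strand), the third TAM receptor, was the least abundant of the 3 per length. It was at 22.4, 15.8, 14.8 and 32.6 CPM in controls and at 14.3, 16.2, 19.4 and 15.4 CPM in cKO. The highest value was that of control S7, and the other 3 controls spanned a range that overlapped cKO. Tyro3 had a log2 fold change of -0.39 with a 95% interval of -1.004 to 0.22, and the adjusted p was 0.699 by edgeR's quasi-likelihood test. Without control S7 the log2 fold change was -0.11.

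**Figure D2:**
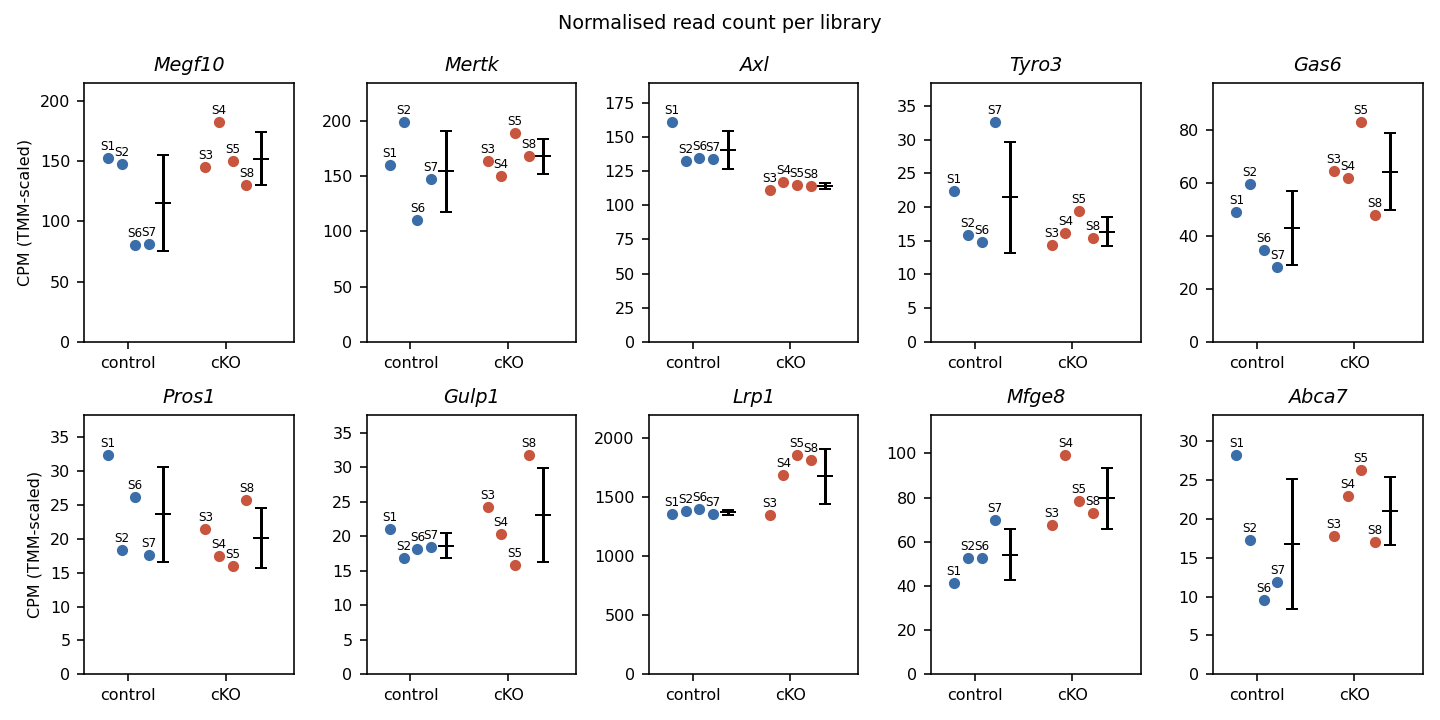
Normalised read count (CPM, TMM-scaled, axes starting at 0) of each gene in each library, with controls in blue, cKO in red, and the mean and SD of each group in black. Axl is the only panel in which the groups do not overlap, and Megf10, Gas6 and Abca7 show low values in control S6 and S7.

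Gas6 (ENSMUSG00000031451; chromosome 8, 13465374 to 13494490, minus strand), the ligand that activates all 3 TAM receptors, had the highest log2 fold change of the 10 genes. It was at 49.1, 59.5, 34.7 and 28.2 CPM in controls and at 64.3, 61.8, 82.9 and 47.7 CPM in cKO. The groups overlapped because cKO S8 lay below control S1 and S2. The log2 fold change was 0.58 with a 95% interval of 0.046 to 1.12, a 1.498-fold higher mean level in cKO. The unadjusted p was 0.0355 and the adjusted p 0.464 by edgeR's quasi-likelihood test, so the difference did not hold after adjustment. Its exons share 34 bases with Tmem255b on the other strand, a gene with 157 reads over all libraries.

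Pros1 (ENSMUSG00000022912; chromosome 16, 62854307 to 62929346, plus strand) encodes protein S, a ligand of Tyro3 and Mertk that also acts as an anticoagulant in plasma. It was at 32.4, 18.3, 26.1 and 17.7 CPM in controls and at 21.4, 17.4, 16.0 and 25.7 CPM in cKO. The groups overlapped broadly, and the log2 fold change was -0.23 (95% interval -0.81 to 0.34). The adjusted p was 0.834 by edgeR's quasi-likelihood test. Without control S1 the log2 fold change was -0.042, without cKO S5 it was -0.13 and without cKO S8 it was -0.37.

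Within a library, the ratio of Gas6 to Pros1 reads does not depend on the scaling between libraries. It was 1.51, 3.26, 1.33 and 1.60 in controls and 3.005, 3.55, 5.20 and 1.86 in cKO. Control S2 lay among the cKO libraries and cKO S8 near the controls, so the groups overlapped. These ratios are a description and were not tested.

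Mfge8 (ENSMUSG00000030605; chromosome 7, 79133768 to 79149060, minus strand), the bridge to alpha-v integrins, had the lowest p of the 10 genes. It was at 41.5, 52.6, 52.7 and 69.7 CPM in controls and at 67.4, 99.4, 78.6 and 73.1 CPM in cKO. Control S7 alone overlapped cKO, lying above cKO S3. The means were 54.1 ± 11.6 and 79.6 ± 14.0 CPM (SD, n = 4 each), and the log2 fold change was 0.56 with a 95% interval of 0.13 to 0.98. The unadjusted p was 0.0138 and the adjusted p 0.352 by edgeR's quasi-likelihood test. In the authors' deposited table Mfge8 was also the lowest of the 10, with a log2 fold change of 0.51 and an adjusted p of 0.170.

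Lrp1 (ENSMUSG00000040249; chromosome 10, 127538161 to 127621148, minus strand, 88 merged exons), the endocytic receptor, was the most abundant of the 10 genes per length. It was at 1356, 1377, 1395 and 1352 CPM in controls, a coefficient of variation of 1.46%. In cKO it was at 1343, 1685, 1855 and 1812 CPM. cKO S4, S5 and S8 thus lay above every control, while cKO S3 lay just below them. Lrp1 had a log2 fold change of 0.29 with a 95% interval of -0.031 to 0.61, and the adjusted p was 0.552 by edgeR's quasi-likelihood test. Without cKO S3 the log2 fold change was 0.39, with an adjusted p of 0.390 by the same edgeR test.

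Gulp1 (ENSMUSG00000056870; chromosome 1, 44551511 to 44796838, plus strand), the adaptor of Megf10 and Lrp1, was at 21.1, 16.8, 18.1 and 18.5 CPM in controls. In cKO it was at 24.2, 20.4, 15.8 and 31.8 CPM. The cKO libraries spread on both sides of the controls, with cKO S5 lowest and cKO S8 highest of all 8. Its log2 fold change was 0.31 with a 95% interval of -0.23 to 0.85, and the adjusted p was 0.741 by edgeR's quasi-likelihood test. Without cKO S8 the log2 fold change was 0.11, and without cKO S5 it was 0.46. The gene body holds 4 other annotated genes, none of which overlaps an exon of Gulp1.

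Abca7 (ENSMUSG00000035722; chromosome 10, 79996494 to 80015572, plus strand), a lipid transporter linked to phagocytic uptake, was the least abundant per length. It was at 28.3, 17.3, 9.56 and 11.8 CPM in controls and at 17.8, 22.9, 26.3 and 17.1 CPM in cKO. The control range enclosed every cKO value, and the coefficient of variation in controls, 49.8%, was the widest of the 10 genes in either group. Abca7 had a log2 fold change of 0.33 with a 95% interval of -0.39 to 1.04, and the adjusted p was 0.798 by edgeR's quasi-likelihood test. Without control S1 it was 0.70, with an adjusted p of 0.488 by the same edgeR test. It was lower without control S6 (0.14), control S7 (0.20) or cKO S5 (0.21).

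Levels of different genes can be compared only per length, for which the deposited FPKM values (fragments scaled to transcript length and library depth) were used. In controls Lrp1 was highest, at 224 FPKM ± 24.0 (SD, n = 4), and its lowest column lay above the highest column of every other gene. Axl followed at 52.8 ± 9.22, Mertk at 40.8 ± 11.5, Mfge8 at 37.9 ± 7.90 and Gas6 at 22.6 ± 7.92 FPKM (SD, n = 4 each). Tyro3 at 19.6 ± 13.3, Megf10 at 19.0 ± 6.49, Gulp1 at 15.5 ± 5.89 and Pros1 at 11.6 ± 5.74 FPKM came next, and Abca7 was lowest at 3.12 ± 1.49 FPKM (SD, n = 4 each). From Axl to Pros1 each gene's columns overlapped those of its neighbour, so that only the first and the last place in this order were separated from the next by more than the spread of the columns.

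The order in cKO also began with Lrp1 (306 FPKM ± 68.1; SD, n = 4) and Axl and ended with Pros1 and Abca7 (3.98 FPKM ± 0.864; SD, n = 4). Counts divided by the length of the merged exons kept Lrp1 first and Abca7 last in controls but gave another order between them. Mertk stood above Axl, at 35.6 ± 8.40 against 28.0 ± 2.72 CPM per kilobase, and Tyro3 stood just above Abca7, at 3.45 ± 1.32 against 2.48 ± 1.24 CPM per kilobase (SD, n = 4 each). Mertk and Axl overlapped on both scales, whereas the place of Tyro3 depended on the scale. Of the summed FPKM of the 3 TAM receptors, Mertk took 26.8% to 48.8% in control columns and 32.3% to 39.8% in cKO columns, and Axl 34.7% to 59.2% and 45.7% to 55.9%.

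**Figure D3:**
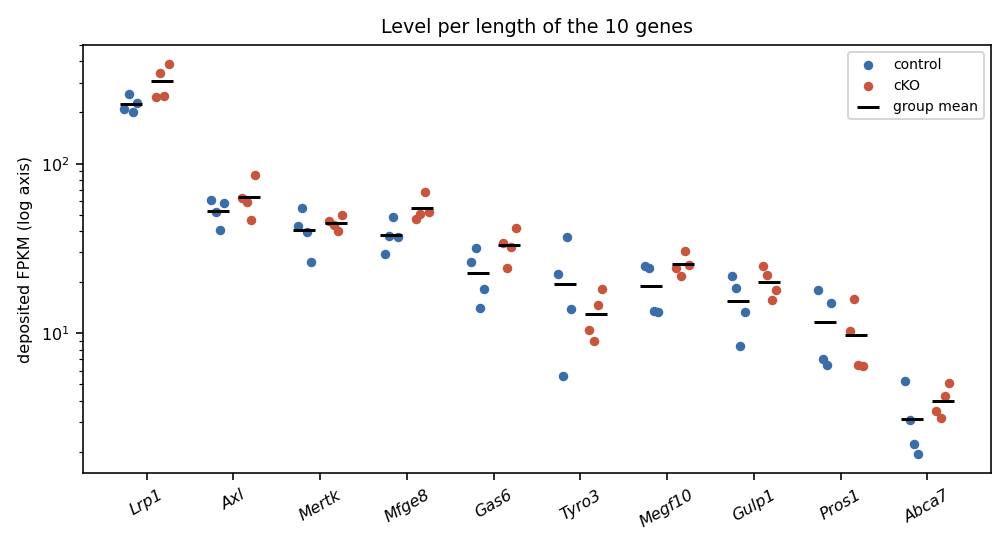
Deposited FPKM of the 10 genes on a log axis, ordered by control mean, with 1 point per column (blue, control; red, cKO) and the group mean as a black bar. Lrp1 stands above and Abca7 below the other genes, and the 8 genes between them overlap with their neighbours.

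Several of the 10 genes varied together among the controls. Megf10, Gas6 and Abca7 were each lower in control S6 and S7 than in control S1 and S2, and lower there than in any cKO library. The astrocyte marker level, the mean log2(CPM + 1) of the 14 markers, was 10.2, 10.1, 9.70 and 9.84 in controls and 10.0 to 10.2 in cKO. The marker level of oligodendrocyte precursors (OPC, 7 genes) was 5.24, 4.80, 5.92 and 6.52 in the same controls and 4.55 to 5.32 in cKO. Control S6 and S7 thus held the lowest astrocyte and the highest OPC marker levels of the 8 libraries. The 14 astrocyte markers did not all follow their mean. In controls Gjb6 was at 974, 926, 372 and 381 CPM, lower in S6 and S7. Gfap, at 165, 145, 257 and 289 CPM, and Slc1a3, at 637, 547, 720 and 703 CPM, were higher there than in S1 and S2. The part of these differences in the values of Megf10, Gas6 and Abca7 was not tested. In sorted bulk RNA, differences in the number of astrocytes, in RNA per astrocyte and in single marker genes cannot be told apart.

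Tyro3 went the other way in control S7, which had its highest value. The correlation of residuals from the group means over the 8 libraries, given as a description without a test, was 0.86 between Megf10 and Abca7, 0.79 between Megf10 and Gas6 and 0.61 between Megf10 and Mertk. It was -0.17 between Megf10 and Tyro3 and -0.32 between Megf10 and Mfge8. The points of these correlations share libraries, depth and scaling.

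Of all tested genes, the 3 most like Megf10 by the same measure were Gpc5, a glypican (0.99), Atp1b2, a subunit of the sodium-potassium ATPase that is also on the astrocyte marker list (0.99), and Lrrc8a, a subunit of volume-regulated anion channels (0.98). Atp1b2 was at 15121, 12419, 5860.0 and 6054 CPM in controls. That it divides the controls as Megf10 does follows from its choice by likeness to Megf10. The 3 most like Mertk were A830082K12Rik, Abhd13 (0.97 each) and A430005L14Rik (0.96). The genes closest to Megf10 were thus not those closest to Mertk.

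**Figure D4:**
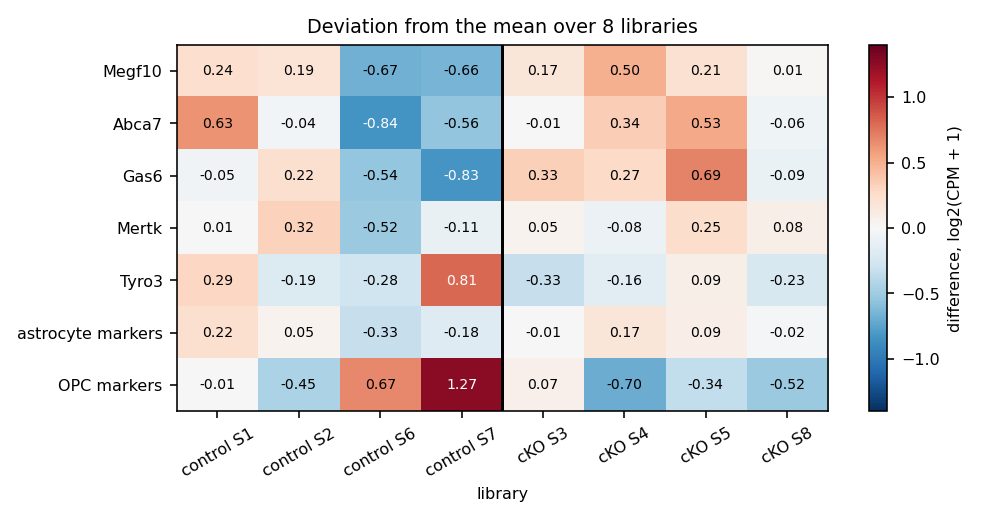
Difference of log2(CPM + 1) from its mean over 8 libraries for 5 of the genes and for the astrocyte and OPC marker levels, with libraries in columns and controls left of the line. Control S6 and S7 are low for Megf10 (-0.67 and -0.66), Abca7 (-0.84 and -0.56) and Gas6 (-0.54 and -0.83) and high for OPC markers (0.67 and 1.27).

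Other genes of engulfment were examined in 8 lists that hold 134 different genes, of which 117 were tested. None passed an adjusted p of 0.05 by edgeR's quasi-likelihood test (0.318% of all genes tested did), and limma-voom also called 0. There were 11 genes with an unadjusted p under 0.05, 7 with higher and 4 with lower means in cKO, or 9.40% of the lists against 9.81% of all genes tested. The median log2 fold change over the lists was 0.066, against -0.017 for all genes tested. The groups did not overlap for 6 of the 117 genes (Elmo2, Vav3, Itgb5, Rab7, Socs3 and Nqo1), or 5.13%, against 6.34% of all genes tested. The lists as a whole therefore lay near the background. DESeq2 called 2 of the genes, Elmo2 and Socs3, with adjusted p of 0.0316 and 0.0214, where it called 2.49% of all genes.

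Among 12 tested recognition receptors, 3 had an unadjusted p under 0.05. Itgb5, the beta subunit of an integrin that binds Mfge8, was at 27.3, 26.0, 33.4 and 25.2 CPM in controls and at 36.8, 42.1, 63.7 and 37.8 CPM in cKO. Its groups did not overlap, as was the case for 6.34% of all genes tested. The log2 fold change was 0.69, with an adjusted p of 0.283 by edgeR's quasi-likelihood test. Its alpha-v partner Itgav was at 330 CPM in controls and 348 CPM in cKO on average, with a log2 fold change of 0.076. Adgrb1, a phosphatidylserine receptor also called BAI1, had a log2 fold change of -0.34, with an adjusted p of 0.501 by the same edgeR test.

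Of 23 tested genes of engulfment signalling, which carry the receptor signal to the actin cytoskeleton, 1 had an unadjusted p under 0.05. Elmo2, a scaffold of the exchange factor that activates Rac, was at 320, 305, 254 and 291 CPM in controls and at 218, 215, 207 and 164 CPM in cKO. The groups did not overlap, as was the case for 6.34% of all genes tested. The log2 fold change was -0.54 (standard error 0.15), and an adjusted p of 0.216 by edgeR's quasi-likelihood test did not pass. Rac1, the GTPase at the end of that path, was at 344 CPM in controls and 406 CPM in cKO on average, with a log2 fold change of 0.24 and an adjusted p of 0.726 by the same test.

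Phagosome and lysosome genes (27 tested) included 3 with an unadjusted p under 0.05. These were Ctsa, Rab7 and Hexa, whose log2 fold changes were 0.62, 0.46 and -0.76, with adjusted p of 0.360, 0.404 and 0.376 by edgeR's quasi-likelihood test. Lamp1, a lysosomal membrane protein, and Ctsb, a lysosomal protease, had log2 fold changes of 0.14 and -0.13. The cargo-digesting end of the pathway thus showed values on both sides of 0.

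Other bridging molecules and opsonins (13 tested) had 1 gene under an unadjusted p of 0.05, Edil3, a relative of Mfge8, with a log2 fold change of -1.36 and an adjusted p of 0.399 by edgeR's quasi-likelihood test. Edil3 was at 7.92, 5.97, 13.3 and 25.5 CPM in controls and at 5.87, 8.03, 1.77 and 4.84 CPM in cKO. Its highest values were those of the 2 controls with the most OPC marker RNA, and the part of OPC RNA in its values was not tested. Apoe, a ligand of Lrp1, was at 3208 CPM in controls and 3687 CPM in cKO on average, with a log2 fold change of 0.20. Genes that hold or expose phosphatidylserine (12 tested) and genes of lipid efflux (8 tested) had 0 at an unadjusted p under 0.05. Abca1, a cholesterol efflux transporter, had a log2 fold change of 0.078.

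Genes of TAM shedding, ligand carboxylation and TAM feedback (10 tested) included 2 with an unadjusted p under 0.05, both with higher means in cKO. Socs3, an inhibitor of cytokine signalling, was at 1.26 CPM in controls and 4.23 CPM in cKO on average, and Nqo1, a quinone reductase, at 1.53 and 4.67 CPM. Their adjusted p were 0.292 and 0.352 by edgeR's quasi-likelihood test. Among chaperones, ligands and adaptors of Lrp1 (13 tested), 1 gene had an unadjusted p under 0.05. This was Sorl1, a sorting receptor of the same family as Lrp1, with a log2 fold change of 0.42 and an adjusted p of 0.397 by the same test.

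**Figure D5:**
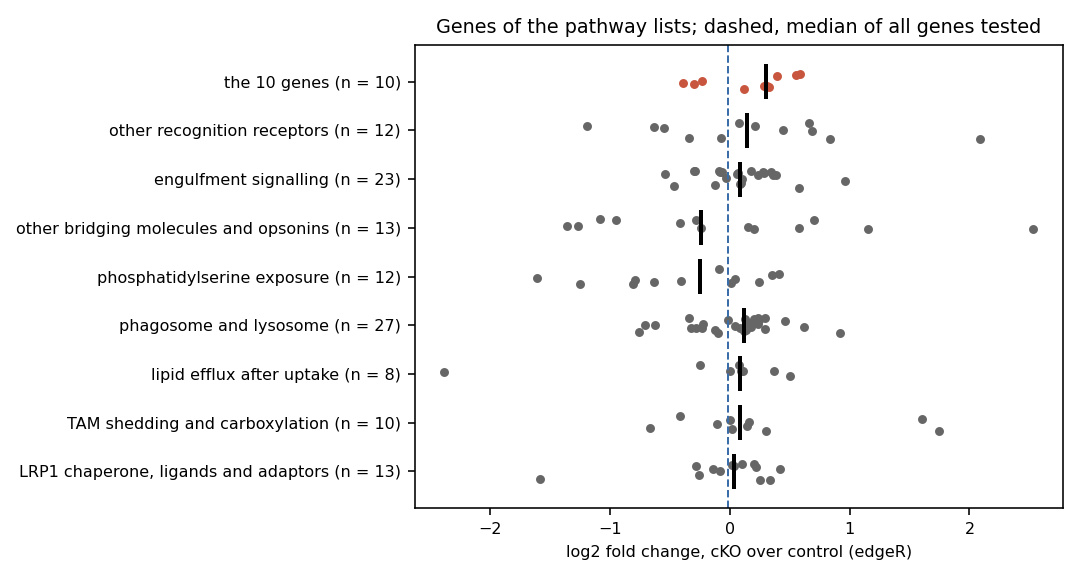
Log2 fold change (edgeR, cKO over control) of each tested gene in the 8 lists and of the 10 genes (red), with list medians as black bars and the median of all genes tested as a dashed line. The list medians lie between -0.25 and 0.14, and that of the 10 genes is 0.30.

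Markers of 9 other cell types were summed up per library to show which other cells the sorted material could hold. By exact 2-sided permutation tests of the mean log2(CPM + 1), 0 of the 9 differed at an unadjusted p under 0.05, where 4 against 4 libraries cannot go below 0.0286. Gene by gene, edgeR's quasi-likelihood test called 0 genes of the 9 lists, but 4 of 7 OPC markers were lower at an unadjusted p under 0.05, as were 3 of 11 oligodendrocyte, 3 of 9 tested endothelial, 2 of 9 tested neuronal and 2 of 7 tested fibroblast markers, against 4.77% of all genes tested. The log2 fold change was negative for all 11 oligodendrocyte markers. DESeq2 called 2 OPC markers, Neu4 and Gpr17, and 1 each of the oligodendrocyte (Mal), neuronal (Gad2) and fibroblast (Col1a2) lists, all lower in cKO. OPC markers (7 genes, none at 0) summed to 404 to 1192 CPM in controls and 304 to 548 CPM in cKO, and oligodendrocyte markers (11 genes) to 1539 to 3077 CPM and 1022 to 2481 CPM. Fibroblast markers (8 genes), of cells that express Gas6 and Axl in many tissues, summed to 130 to 640 CPM in controls and 98.9 to 197 CPM in cKO. The 640 CPM was that of control S6 alone, and controls S1, S2 and S7 were at 130, 212 and 261 CPM. Pdgfra is on both the fibroblast and the OPC list. Endothelial markers (9 genes) summed to 51.8 to 72.1 CPM and 24.4 to 60.6 CPM, and neuronal markers (11 genes, with Chat at 0 in every cKO library) to 51.3 to 89.1 CPM and 34.5 to 56.8 CPM. Mural markers (8 genes) summed to 56.6 to 72.1 CPM and 50.9 to 61.5 CPM, ependymal markers (6 genes) to 8.24 to 28.5 CPM and 10.4 to 35.2 CPM, and Schwann cell markers (5 genes) to 67.7 to 152 CPM and 96.2 to 186 CPM. Among these, Higd1b and Prx were at 0 in every control library, and Kcnj8 and Ccdc153 in every cKO library. The mean levels of the OPC, oligodendrocyte, fibroblast, endothelial and neuronal lists were lower in cKO, and their part in the count-based values of Axl, Tyro3 and Pros1, whose means were also lower there, was not tested.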

How the data were processed

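Reads of 8 RNA-seq libraries (spinal cord astrocytes, 4 control and 4 cKO) were processed by the authors. The submitters' processing notes name TopHat2 2.0.11, Bowtie2 2.2.3, HTSeq 0.6.1p1, Cufflinks 2.2.1, Cuffnorm, DESeq2 1.14.1 and GRCm38, without roles. Strand setting and annotation release are not given in the sources used here, so reads of overlapping genes on opposite strands cannot be told apart.

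The authors deposited raw counts per gene and library. The 5 summary lines that name no gene held 56.4% to 61.7% of reads and were left out. The authors deposited FPKM values per library. Of the 8 FPKM columns, 5 followed the counts of another library of the same group than the one named, over 11785 genes, so FPKM was used by group only. Per the file headers, the authors' comparison holds group means of scaled counts (a signal), a log2 fold change, its standard error and Wald statistic (scores) and p-values, from the deposited table.

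Counts were tested with edgeR 4.0.16 in R 4.3.3 (quasi-likelihood, TMM, filterByExpr, no covariate), with Benjamini-Hochberg adjustment over all 14757 genes tested and a threshold of 0.05. Intervals are 95%, from the fold change and its F statistic. DESeq2 1.42.0 and limma 3.58.1 were alternatives, beside other scalings, filters, Xist level as a covariate and leaving out each library. Scripts were tested on simulated counts. Python 3.11.15 and matplotlib 3.10.9 were used otherwise. Coordinates and exons are from GENCODE mouse release 21 on GRCm38.

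The 10 genes, the pathway lists and the marker lists were chosen with earlier results of these data known. Named beside the 10 genes were Kcnj10, and from each list the genes past the threshold and the 2 with the highest control mean CPM (of marker lists, 1). Of these, not all are reported here. List genes with an unadjusted p under 0.05, and the marker genes other than the highest by mean CPM, were named after their values were seen. Genes most like Megf10 and Mertk were the 3 with the highest Pearson correlation of log2(CPM + 1) residuals.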

Additional observations from a re-analysis of the deposited data

Results flagged for a closer look

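In 3 of 42 groups of 4 libraries examined (each of the 10 genes, Kcnj10 and 10 marker levels, in each group), 1 library stood apart from the other 3, where about 2.1 are expected by chance. Axl was at 161 CPM in control S1, against 133 to 135 CPM in the other controls. The endothelial marker level, a mean log2(CPM + 1), was 2.72 in cKO S3, against 1.68 to 1.80 in the other cKO libraries. The ependymal marker level was 2.14 in cKO S3, against 0.880 to 1.09 in the other cKO libraries. cKO S3 was also the library with the lowest Lrp1 (1343 CPM) and the lowest Axl (111 CPM) of the 8.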

How the results depend on the processing

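None of the 10 genes was called under any of the alternatives, and 4 of 180 values (18 alternatives for each gene) had the opposite sign. These were Axl with limma on deposited FPKM, at 0.24 with a pseudocount of 1, 0.25 with a pseudocount of 0.1 and 0.24 without a filter, and Mertk without control S6, at -0.0078 (range over left-out libraries -0.0078 to 0.27). The cause was not tested. The lowest adjusted p was 0.184, for Mfge8 with DESeq2. Library totals without composition normalization moved the median log2 fold change of all genes by 0.11, and the values of the 10 genes by about as much. Over all genes, 47 calls became 87 with a filter of 1 count in any library, 84 with 10 counts in every library, 384 with DESeq2 and 28 with Xist level as a covariate, and 4 (without cKO S4) to 45 (without cKO S3) when a library was left out. Calls of library totals were 62, of which 48 were higher, against 30 of 47 with TMM. Of the 117 pathway genes, 0 were called except with DESeq2, which called 2. Kcnj10 kept its call in all 18 alternatives, with log2 fold changes from -6.12 to -5.61. Marker levels of other cell types had 0 differences except without cKO S3, where 1 of 9, for endothelial cells, had an exact unadjusted p of 0.0286 (difference -0.97, range over left-out libraries 0 to 1 list). The labels name no pairs of libraries across the groups, so no paired analysis was run. With 4 libraries a group, the upper ends of the 95% intervals of the 10 genes ran from 1.002-fold (Axl) to 2.17-fold (Gas6) and the lower ends from 0.499-fold (Tyro3) to 1.10-fold (Mfge8).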
